A study of Rattus norvegicus with 4 samples.

Results

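MicroRNA (miRNA) levels in rat primary chondrocytes treated with interleukin-1β (IL-1β) at 10 ng/ml for 24 h were compared with those in untreated chondrocytes collected at 0 h. Each side was 1 sample on 1 array, out of 4 arrays in the series; the other two hold cells treated at the same dose for 6 h and 12 h, and all cultures were kept at 200000 cells per ml. The comparison took in all 679 rat miRNA probes of the array, each spotted 5 times. No untreated culture was kept for 24 h, so an effect of IL-1β cannot be told apart from 24 h more in culture. In a bulk sample of this kind, fewer cells of a type and less RNA per cell cannot be told apart either. The labels give no strain, age, joint or passage for the cells, and no replicate of either group. Every error below is the standard error (SE) or standard deviation (SD) over the 5 spots of a probe, which covers spot error within an array only, and no p-value was computed. The number of arrays limits the precision.

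IL-1β is an inflammatory cytokine of injured and arthritic joints. In chondrocytes, the cells that make cartilage matrix, it signals through the NF-κB and MAP kinase pathways and raises matrix-degrading proteases. A miRNA is cut from a hairpin transcript, and a mature strand from either arm of the hairpin is loaded into an Argonaute protein. It then pairs with messenger RNAs, mainly through its seed (bases 2 to 8 from the 5′ end), and lowers their translation and stability. miRNAs with the same seed form a family with overlapping targets. In cartilage, miR-140 is the best known tissue-enriched miRNA, and miR-146a is a well known target of NF-κB that lowers the signalling adaptors Traf6 and Irak1. An asterisk in a name marks the arm that was taken for the minor one when the array was designed.

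The sequences that the results turn on are given 5′ to 3′ as the array files list them, with the seed in capitals, and apart from miR-328a* each matched a mature rat miRNA of RefSeq (build GRCr8) exactly. The first set is made of families with at least 1 member higher at 24 h, shown so that close relatives can be compared.
miR-146a: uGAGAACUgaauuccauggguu
miR-146b: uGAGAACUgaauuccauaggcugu
miR-29a: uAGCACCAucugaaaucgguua
miR-29b: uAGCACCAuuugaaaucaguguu
miR-29c: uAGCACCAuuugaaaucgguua
miR-101a: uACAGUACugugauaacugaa
miR-101b: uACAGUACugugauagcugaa
miR-17-5p: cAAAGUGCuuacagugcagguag
miR-20a: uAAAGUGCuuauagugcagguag
miR-20b-5p: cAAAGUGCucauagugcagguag
miR-106b: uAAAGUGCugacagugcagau
miR-93: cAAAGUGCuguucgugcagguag

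The next set holds miR-494, the member of the imprinted Dlk1-Dio3 locus that stood highest above 0 h, and 4 of the miRNAs that stood farthest below it.
miR-494: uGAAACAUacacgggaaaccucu
miR-329: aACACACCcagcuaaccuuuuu
miR-3573-3p: uUCCUAACucugcccccucccau
miR-1249: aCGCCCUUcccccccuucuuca
miR-328a*: gGGGGGCAggaggggcuca

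The last set pairs both arms of the 4 hairpins whose arms parted most with the dimmer arm ahead.
miR-140: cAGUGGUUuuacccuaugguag
miR-140*: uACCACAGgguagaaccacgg
miR-365: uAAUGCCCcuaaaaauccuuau
miR-365*: gAGGGACUuucaggggc
miR-34c: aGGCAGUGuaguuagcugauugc
miR-34c*: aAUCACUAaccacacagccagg
miR-322: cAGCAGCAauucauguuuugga
miR-322*: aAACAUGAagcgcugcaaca

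The 24 h array detected 210 miRNAs and the 0 h array 187. Detection required that 3 or more of a probe's 5 spots were brighter than 95% of the 261 empty spots of that array, a limit of 86.2 scanner units at 24 h and 151.3 units at 0 h. The empty spots had a median of 65.0 units at 24 h and 122.6 units at 0 h, so that dim miRNAs were easier to see at 24 h. The 679 probes fell into 164 detected on both arrays, 46 at 24 h only, 23 at 0 h only and 446 on neither, and the 233 detected at least once were compared. Among those detected, the median spot-to-spot coefficient of variation was 9.54% at 24 h and 11.3% at 0 h. The total signal of the miRNA spots was 4.19e+06 units at 24 h and 2.95e+06 units at 0 h. Levels are log2 values after background correction and quantile normalization, and a change is the 24 h level minus the 0 h level.

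The cell type label was set against miRNAs known to be enriched in cartilage and in other tissues. Of 5 cartilage-enriched miRNAs, 4 were detected at 24 h and 3 at 0 h, led by miR-140* at 11659 units at 24 h and 8265 units at 0 h, while miR-675 was detected on neither array. All 5 miRNAs of mesenchymal cells were detected on both. None of 6 blood cell, 7 epithelial or 1 liver miRNAs with a probe was detected on either array. miR-206 of muscle and miR-128 of neural tissue were seen on both, each the only one of its list. The endothelial miR-126 was detected at 24 h only, at 227.6 ± 16.4 units beside 138.7 ± 15.3 units at 0 h (SD over 5 spots), and its partner arm miR-126* on neither. The summed signal of both endothelial probes was 270.5 units at 24 h and 216.4 units at 0 h.

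Treated cells differed from untreated ones in 32 (13.7%) of 233 miRNAs, 19 (8.15%) called higher and 13 (5.58%) called lower. A miRNA was called where its log2 change was at least 1 in size (2-fold) and over 2 times its spot SE. The split between directions moved with the scaling of the arrays, to 13 higher and 38 lower with median scaling, 23 and 27 with scaling to the spike spots, and 19 and 31 when unnormalized changes were centred on their median. After GC correction it was 12 and 13. On the quantile scale the higher ones included miR-146a, a brake on NF-κB signalling, miR-29b and miR-29c, which target collagens, both miR-101 miRNAs, members of the miR-17-92 cluster of proliferating cells, and the cartilage-enriched miR-140. The lower ones were led by miR-328a*, miR-1249, miR-3573-3p, miR-329 and miR-377. The typical miRNA hardly moved, with a median change of 0.02, quartiles of -0.33 and 0.48, and 135 of 233 within 0.5 of no change. Levels on both arrays were correlated across the 233 miRNAs at r = 0.950, a description of miRNAs that share 2 arrays. All 19 higher and all 13 lower miRNAs had the same sign of change at each of their 5 spot positions, and 14 and 9 of them passed 2-fold at every position. The calls were made from these same spots, so this is no separate support for them. Of the 201 miRNAs not called, 120 also had the same sign at all 5 positions.

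**Figure D1:**
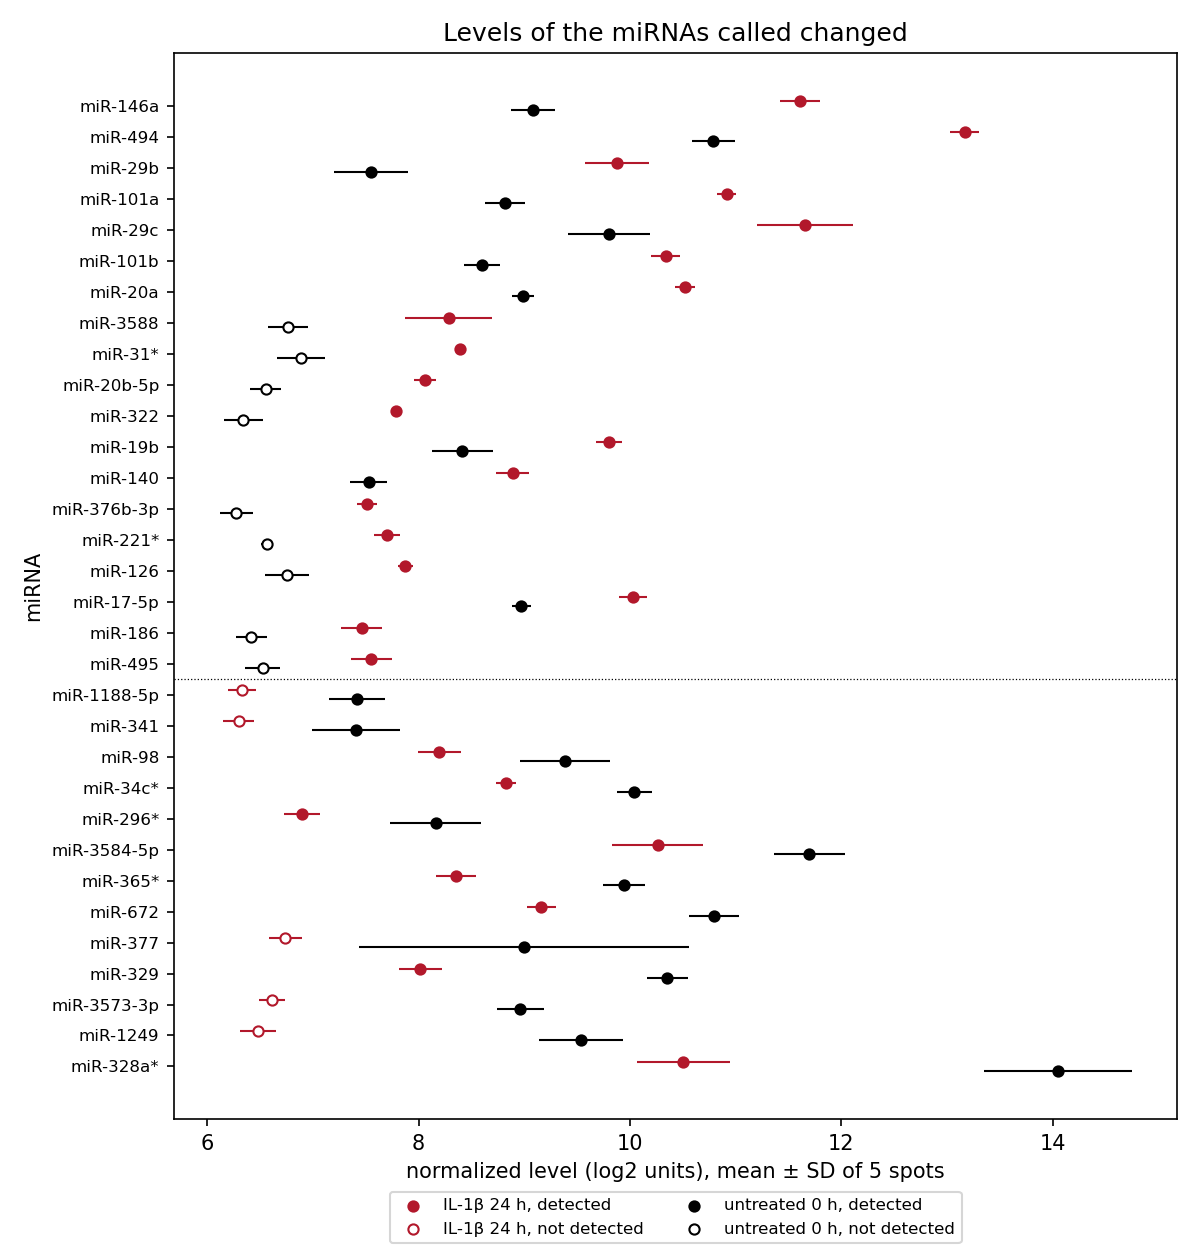
Normalized log2 levels of the 32 called miRNAs, ordered by change, with IL-1β 24 h in red above untreated 0 h in black; points are the mean and bars the SD of 5 spots of 1 array, and open points were not detected. The 19 higher miRNAs stand above the dotted line and the 13 lower ones below it; the bars of miR-377 at 0 h are the widest drawn.

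miR-146a had the largest change upwards. Its spots averaged 3288 ± 300.4 units at 24 h and 452.8 ± 59.5 units at 0 h. The lowest 24 h spot, at 2839 units, lay far above the highest 0 h spot, at 522.2 units. The normalized change was 2.52 ± 0.13 (SE), or 5.74-fold, and it lay between 2.14 and 2.88 under all 18 other ways of processing. The miRNA is encoded at chr10:28350053-28350074 on the minus strand (GRCr8). No gene span held it in a search that left out genes with LOC or Mir symbols. Its relative miR-146b, which shares the seed and lies 3 edits away, had 493.8 units at 24 h and 307.4 units at 0 h and a change of 0.35 ± 0.17. The opposite arm, miR-146a*, was detected at 24 h only, at 113.2 units at 24 h and 83.4 units at 0 h. Its measured change of 0.99 was just under the rule, but as a bound on the quantile scale it was at least 0.19.

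Of the 8 compared miRNAs from a list known to be induced by inflammatory signals, miR-146a was the 1 called higher and none was called lower. Over all 233 miRNAs compared, 8.15% were called higher and 5.58% lower. The median change of the 8 was 0.51, beside 0.02 for all miRNAs compared, and it was positive under all 18 other settings. miR-221 and miR-222, which share a seed and a hairpin cluster and lower the cell cycle inhibitor Cdkn1b, came next. miR-221 read 24871 units at 24 h and 7961 units at 0 h, with a change of 0.85 ± 0.06, and miR-222 read 20219 units at 24 h and 6719 units at 0 h, with a change of 0.81 ± 0.05. Neither passed 2-fold on the quantile scale, but without normalization between arrays they read 1.65 and 1.59. All 4 arms of this cluster had positive changes, from 0.56 to 1.14, and miR-221*, the one called higher, and miR-222* were detected at 24 h only. miR-31, another miRNA of inflamed tissue, was at 0.67 ± 0.06, and miR-21, the brightest miRNA at 24 h with 43171 units at 24 h and 27992 units at 0 h, was at 0.25 ± 0.07.

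The miR-29 family, whose known targets include collagen transcripts, had 2 of 3 members called higher. miR-29b read 1180 ± 198.1 units at 24 h and 198.2 ± 31.9 units at 0 h, a change of 2.33 ± 0.21. miR-29c read 3384 ± 873.7 units at 24 h and 662.8 ± 128.3 units at 0 h, a change of 1.85 ± 0.27. For both, every 24 h spot was brighter than every 0 h spot. miR-29a read 26307 units at 24 h and 11041 units at 0 h, and its change of 0.63 ± 0.06 did not pass. The probe of miR-29c lies 1 edit from that of miR-29a, and how far they read each other's RNA was not tested. Net of the empty spots, miR-29c had 12.6% of the miR-29a signal at 24 h and 4.95% at 0 h, and miR-29b had 4.25% at 24 h and 0.693% at 0 h. Relative to miR-29a, both were thus higher at 24 h than at 0 h. One copy of miR-29b and miR-29c lie in a hairpin cluster at chr13:109098831-109099446, and the other copy of miR-29b and miR-29a in a cluster on chromosome 4.

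Both members of the miR-101 family were called higher. They are known to lower the histone methyltransferase Ezh2, and the cartilage transcription factor Sox9 is a reported target. miR-101a read 2060 ± 153.9 units at 24 h and 377.5 ± 51.5 units at 0 h, and miR-101b read 1460 ± 81.7 units at 24 h and 326.8 ± 34.3 units at 0 h. Every 24 h spot of each was brighter than every 0 h spot. Their changes were 2.10 ± 0.09 and 1.74 ± 0.10, and they stayed above 1.46 and 1.27 under every other setting. The probes lie 1 edit apart, and the net signal of miR-101b was 69.9% of that of miR-101a at 24 h and 80.1% at 0 h. How far they read separate RNAs was not tested. The loci are apart: miR-101a lies on chromosome 5 (chr5:121081691-121081711, minus strand) and miR-101b within the span of Rcl1 on chromosome 1 (chr1:236273982-236274002, plus strand).

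Of 10 compared miRNAs of the miR-17-92 cluster and its paralogs, which promote proliferation and lie downstream of Myc, 4 were called higher and none lower, with a median change of 0.85. The shares over all 233 miRNAs compared were 8.15% higher and 5.58% lower. miR-20a read 1571 ± 64.8 units at 24 h and 424.9 ± 28.6 units at 0 h, a change of 1.53 ± 0.06. miR-19b read 1157 units at 24 h and 298.6 units at 0 h (1.38 ± 0.14), and miR-17-5p read 1280 units at 24 h and 419.0 units at 0 h (1.06 ± 0.07). Every 24 h spot of these miRNAs was brighter than every 0 h spot. By seed, the 5 miRNAs that share AAAGUGC had changes of 1.53 for miR-20a, 1.505 for miR-20b-5p, 1.06 for miR-17-5p, 0.82 for miR-106b and 0.38 for miR-93. miR-20b-5p, the fourth one called, was not detected at 0 h, and as a bound on the quantile scale its change was at least 1.17. The probes of miR-20a and miR-20b-5p each lie 2 edits from that of miR-17-5p. How far these probes read each other's RNA was not tested. The 3 members that share AUUGCAC stayed near 0, with miR-92a at -0.01 ± 0.09, miR-25 at -0.11 ± 0.11 and miR-92b at 0.30 ± 0.13, although miR-92a read 0.81 without normalization. Of 5 compared miRNAs with a copy in the Mir17 cluster (chr15:98587848-98588632), 3 were called higher and miR-92a was not. miR-17-5p, miR-19b and miR-92a also have a copy in a cluster on chromosome X, so their signals cannot be assigned to either cluster. miR-19a, 1 edit away from miR-19b, was detected on neither array, at 47.1 units at 24 h and 94.7 units at 0 h.

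miR-140 read 514.7 ± 55.8 units at 24 h and 193.2 ± 14.1 units at 0 h, with no overlap of the spots. It lies within the span of Wwp2 on chromosome 19 (chr19:52375314-52375335), and Adamts5, an aggrecan-degrading protease, is among its known targets. Its change was 1.37 ± 0.10, or 2.58-fold, and median scaling of the arrays lowered it to 0.98, just under the rule. The other arm, miR-140*, had a change of -0.31 ± 0.09, with the sign turned under 4 other settings. Also from cartilage, miR-455 was at 0.59 ± 0.14 and miR-455* at -0.79 ± 0.08, with neither called. miR-455 read 132.3 units at 24 h and 129.1 units at 0 h, where it was not detected, and turned negative under 3 other settings. miR-455* read 1971 units at 24 h and 1944 units at 0 h, and its change was 0.04 without normalization. As a list, the 4 cartilage-enriched miRNAs compared had a median of 0.14, which became negative under 3 other settings.

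miR-494 was next to miR-146a in size of change. It read 10642 ± 756.2 units at 24 h and 1133 ± 176.9 units at 0 h, again with no overlap of the spots. The change was 2.38 ± 0.11 and stayed between 2.10 and 3.25 under the other settings. It belongs to the Dlk1-Dio3 locus on chromosome 6, an imprinted region with long arrays of miRNA hairpins transcribed from the maternal allele. Of 22 compared miRNAs listed for this locus, 3 were called higher and 3 lower, with a median change of 0.32 that turned negative under 3 other settings. Among all 233 miRNAs compared, 8.15% were called higher and 5.58% lower. miR-329 is encoded 2168 bases upstream of miR-494 on the same strand (chr6:134547973-134547994 and chr6:134550163-134550185), within a cluster of 30 hairpins. It read 259.7 ± 45.0 units at 24 h and 877.3 ± 71.0 units at 0 h, a change of -2.34 ± 0.13. These near neighbours thus had changes of like size and opposite sign. Of the 20 miRNAs compared from the same cluster, 2 were called higher and 2 lower, and the other two called were miR-495 at 1.03 ± 0.11 and miR-377 at -2.26 ± 0.70. A neighbouring group in the locus, miR-341 and miR-1188-5p, was lower on both members, each detected at 0 h only. On the quantile scale each was at least 1.56-fold lower.

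The value of miR-377 rested partly on 1 spot. Its 0 h spots ran between 249.1 and 2143 units with a mean of 653.6, and at 24 h its mean was 77.3 units, below detection. With the median of the 5 spots its change was -1.71. Set against the median 0 h spot, it was at least 3.20-fold lower at 24 h on the quantile scale. In the authors' values its change was -1.51. miR-122* showed the same problem without a call. Its mean was 79.3 units at 24 h and 346.1 units at 0 h, and its change of -1.03 ± 0.75 was within 2 SE of 0.

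miR-328a* had the largest change of all. It read 1657 ± 361.3 units at 24 h and 13432 ± 5989 units at 0 h. Its 0 h spots varied widely, between 5066 and 18946 units, yet the lowest of them was brighter than the brightest 24 h spot, at 2137 units. The change was -3.54 ± 0.37, or 11.6-fold lower, and its range under the other settings was -3.89 to -2.58. The sequence is 78.9% G and C, with a run of guanines in the seed, and no RefSeq mature miRNA matched it. miR-1249 read 60.03 units at 24 h, below detection, and 566.4 ± 98.5 units at 0 h. miR-3573-3p read 67.0 units at 24 h, below detection, and 417.8 ± 62.5 units at 0 h. As bounds on the quantile scale, miR-1249 was at least 6.80-fold lower at 24 h and miR-3573-3p at least 4.57-fold lower. For miR-1249 and miR-3573-3p too, no 24 h spot was as bright as any 0 h spot.

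Smaller changes downwards were those of miR-672 (-1.63 ± 0.12), miR-365* (-1.59 ± 0.12), miR-3584-5p (-1.44 ± 0.24), miR-296* (-1.27 ± 0.21), miR-34c* (-1.21 ± 0.08) and miR-98 (-1.19 ± 0.21). In scanner units the difference was larger for miR-296*, at 92.9 units at 24 h and 265.8 units at 0 h, and smaller for the other 5. Of these, miR-34c* read 493.9 units at 24 h and 726.4 units at 0 h, and miR-3584-5p read 1457 units at 24 h and 2091 units at 0 h with spots that overlapped. miR-98 belongs to the let-7 family, which restrains proliferation. It read 302.7 units at 24 h and 529.0 units at 0 h, with spots that overlapped, and its probe lies 2 edits from that of the brighter let-7a. The net signal of miR-98 was 1.0% of that of let-7a at 24 h and 2.06% at 0 h. The other 7 let-7 miRNAs lay between -0.53 and 0.23, none called, and the family median of -0.35 became positive without normalization and with scaling to the spike spots.

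**Figure D2:**
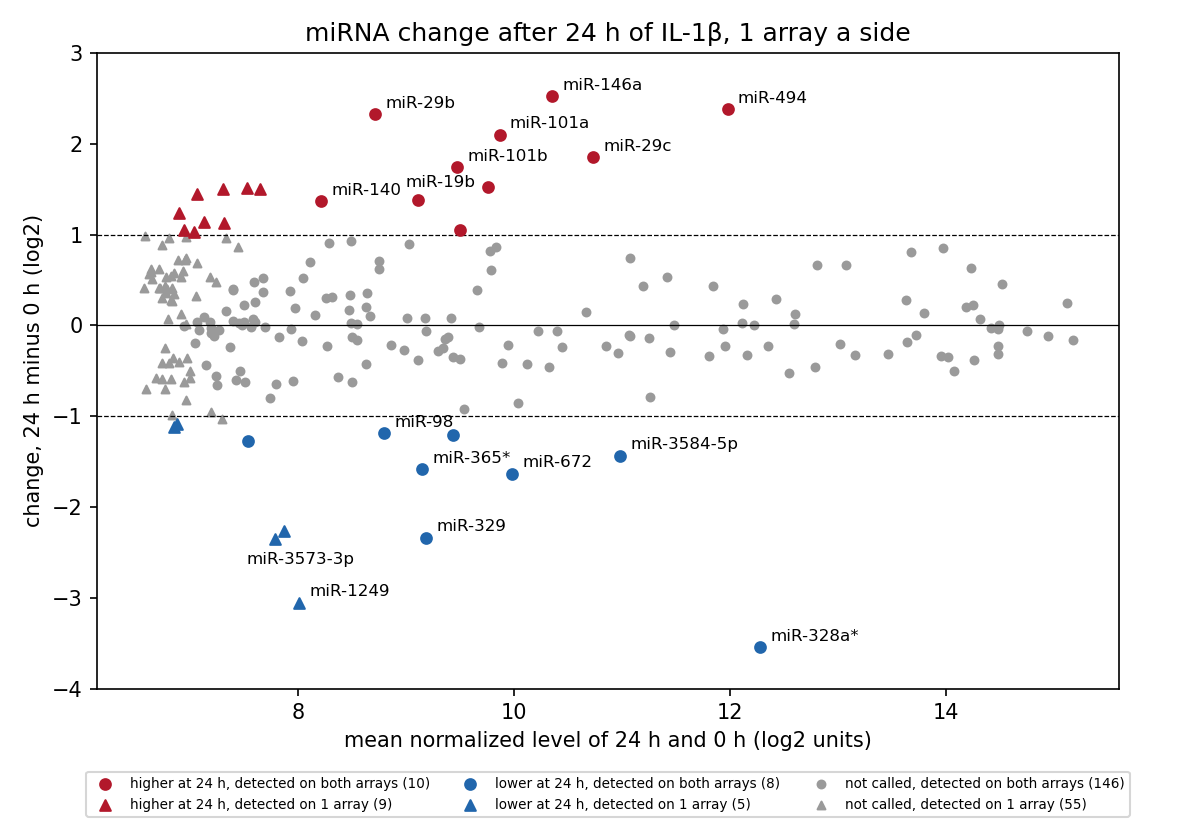
Log2 change (24 h minus 0 h) of the 233 miRNAs compared against their mean normalized level on both arrays; red points were called higher, blue lower and grey not called, triangles were detected on 1 array, and dashed lines mark 2-fold. All 14 called triangles lie at the dim end, while miR-494 and miR-328a* stand out among the brighter miRNAs.

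A detection on 1 array only stood behind 14 of the 32 calls. The 9 higher ones were miR-3588, miR-31*, miR-20b-5p, miR-322, miR-376b-3p, miR-221*, miR-126, miR-186 and miR-495. Their 24 h means ran between 161.2 and 352.4 units, all above the detection limit of the 0 h array, while their 0 h means ran between 100.01 and 148.5 units. The folds are bounds that hold on the quantile scale only. Each is the 24 h level over the lowest detected level of the 0 h array, or over its own 0 h level where that was higher. They lay between 1.49-fold and 2.84-fold, and 3 of the 9 reached 2-fold as a bound. These were miR-31* at 2.84-fold, miR-3588 at 2.63-fold and miR-20b-5p at 2.26-fold. With median scaling their log2 changes were 0.85, 0.80 and 0.74, each under 2-fold. Of the 5 lower ones, at 50.9 to 77.3 units at 24 h, miR-341 and miR-1188-5p did not reach 2-fold as bounds and the other 3 did. Where each undetected level was replaced by the lowest detected one of its array, 13 were called higher and 11 lower.

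Just outside the rule on the upper side, after miR-146a*, were miR-301a (0.98), miR-218a (0.96), miR-34c (0.96) and miR-30e (0.93). Of these, only miR-30e was detected at 0 h. There miR-146a*, miR-301a and miR-218a read 83.4, 116.7 and 104.3 units, below the empty-spot median of 122.6. Median scaling lowered miR-301a to 0.12 and miR-218a to 0.10. On the lower side, next to miR-122*, they were miR-323* (-0.99), miR-665 (-0.95), miR-466b (-0.92) and miR-32* (-0.86). miR-122*, miR-323* and miR-665 were not detected at 24 h. miR-32* read 973.1 units at 24 h and 928.2 units at 0 h, so its negative change came from the normalization and not from a lower spot signal. Just inside on the upper side were miR-495 at 1.03 ± 0.11 and miR-186 at 1.05 ± 0.11, and on the lower side miR-1188-5p at -1.09 ± 0.13 and miR-341 at -1.12 ± 0.20.

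The other families held 1 call, that of miR-322. In the miR-30 family, 4 of 5 compared miRNAs were positive with a median of 0.74, between -0.06 for miR-30d and 0.93 for miR-30e, and the median stayed positive under all 18 other settings. miR-34a and miR-34c, which p53 induces, were at 0.61 and 0.96, the second from a detection at 24 h only. miR-148b-3p, miR-152, miR-130a and miR-301a were all positive with a median of 0.48. The miR-181 family had 4 of 4 negative with a median of -0.46, which was 0.01 without normalization. The miR-23/27/24 clusters (0.13), the group of miR-10, miR-99, miR-100 and miR-125 (-0.07), miR-26 (-0.17) and the mesenchymal miRNAs (0.07) had medians within 0.2 of 0 on the quantile scale, and those of miR-26, the miR-10 group and the mesenchymal list changed sign in 2 to 4 other settings. miR-290, the compared member of a stem cell cluster of 8, was at -0.23 ± 0.19. In the miR-15/16 family, miR-322 (miR-424 in human) was called higher, whereas miR-15b, miR-16, miR-195 and miR-497 lay between -0.04 and 0.36. None of the 10 miRNAs with the brightest signal at 24 h was called. Of these, miR-221 had the largest change, at 0.85, and the others lay between -0.16 and 0.63.

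**Figure D3:**
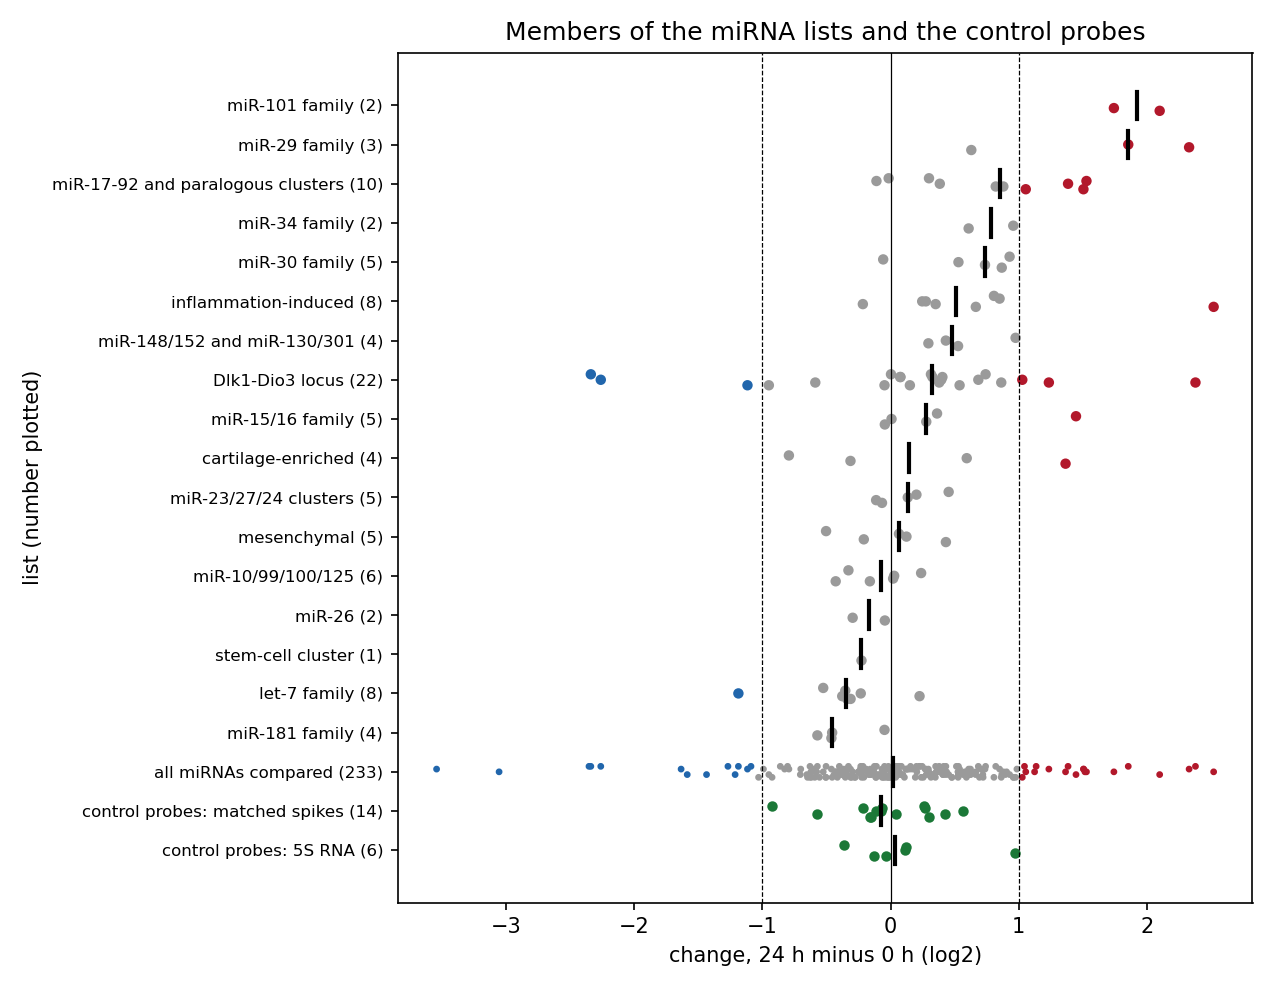
Log2 change (24 h minus 0 h) of the compared members of 17 miRNA lists, of all 233 miRNAs compared and of the control probes; each point is a miRNA or control probe, red was called higher, blue lower and grey not called, control probes are green, black bars mark medians and dashed lines 2-fold. The miR-101 and miR-29 lists have the highest medians, at 1.92 and 1.85, and no control probe plotted passes 2-fold on the quantile scale.

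By seed, 26 groups of at least 2 compared miRNAs shared bases 2 to 8, with 72 miRNAs in all. A call fell in 7 of these groups, and in none of them were there calls in both directions. Over all 233 miRNAs compared, 32 (13.7%) were called. Only 3 seeds were held by 2 or more called miRNAs, those of miR-101a, miR-29b and miR-20a. Calls in both directions were thus possible in those groups only. Their probes are close in sequence, and how far they read each other's RNA was not tested. The lack of mixed groups is therefore no measure of agreement within families. Members of a group could differ by more than their spot errors. The widest gaps were those of miR-146a and miR-146b, which were 2.17 apart, and of the miR-29 family, which spanned 1.70. miR-101a and miR-101b were 0.36 apart, and miR-221 and miR-222 were 0.04 apart.

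Both arms of a hairpin come from 1 precursor, so their changes were set side by side. Of 38 hairpins with both arms compared, 18 had arms of opposite sign and none had both arms called, while 7 had 1 arm called. In 4 of them the dimmer arm stood over 2-fold higher relative to the brighter arm, and in 1 over 2-fold lower. The latter was the miR-146a hairpin, where miR-146a minus miR-146a* was 1.53 ± 0.16, with miR-146a* not detected at 0 h. The dimmer arm was below detection on 1 of both arrays in 20 of the 38, among them 10 of the 18. For the miR-365 hairpin, with both arms detected on both arrays, the difference, miR-365 minus miR-365*, was 2.28 ± 0.22 on the log2 scale, and for miR-140 minus miR-140* it was 1.68 ± 0.14. Under 8 other ways of background correction and scaling these differences kept their sign, with lowest values of 1.13 for miR-365 and 0.97 for miR-140. miR-34c and miR-322 were not detected at 0 h, so their differences from miR-34c* and miR-322* are bounds, of at least 2.14 for miR-34c and at least 1.15 for miR-322 when the lowest detected 0 h level stands for theirs. Without normalization the measured differences of these hairpins were 1.18 for miR-34c and 0.86 for miR-322. All 4 brighter arms in question are richer in G and C than their partners, at 64.7% beside 31.8% for miR-365* and miR-365, 50% beside 47.8% for miR-34c* and miR-34c, 45% beside 40.9% for miR-322* and miR-322, and 57.1% beside 45.5% for miR-140* and miR-140.

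Changes ran with base composition across the array. Over the 233 miRNAs, the change and the GC content were correlated at r = -0.44, and at -0.40 over those detected on both arrays; the miRNAs share the 2 arrays and their hybridization, and the correlation is a description. Median GC content was 40.9% in the 19 higher miRNAs, 61.9% in the 13 lower ones and 50% in those not called. Below 40% GC, 9 of 33 compared miRNAs were called higher and 2 lower, whereas at 60% GC and above 0 of 40 were called higher and 7 lower, with a median change of -0.42. The change was also fitted on GC content over the same 233 miRNAs, called ones included, and the residuals were put to the rule for calls. How much of the calls comes from base composition was not tested, because the fit also takes up any response that runs with GC content. The residuals gave 12 higher and 13 lower. Still called, among others, were miR-20a, both miR-101 miRNAs, miR-29b, miR-29c, miR-494 and miR-146a as higher, and miR-328a*, miR-329, miR-1249, miR-3573-3p and miR-377 lower. miR-329 (40.9% GC) and miR-377 (34.8% GC) were lower in spite of a GC content like that of the higher miRNAs.

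**Figure D4:**
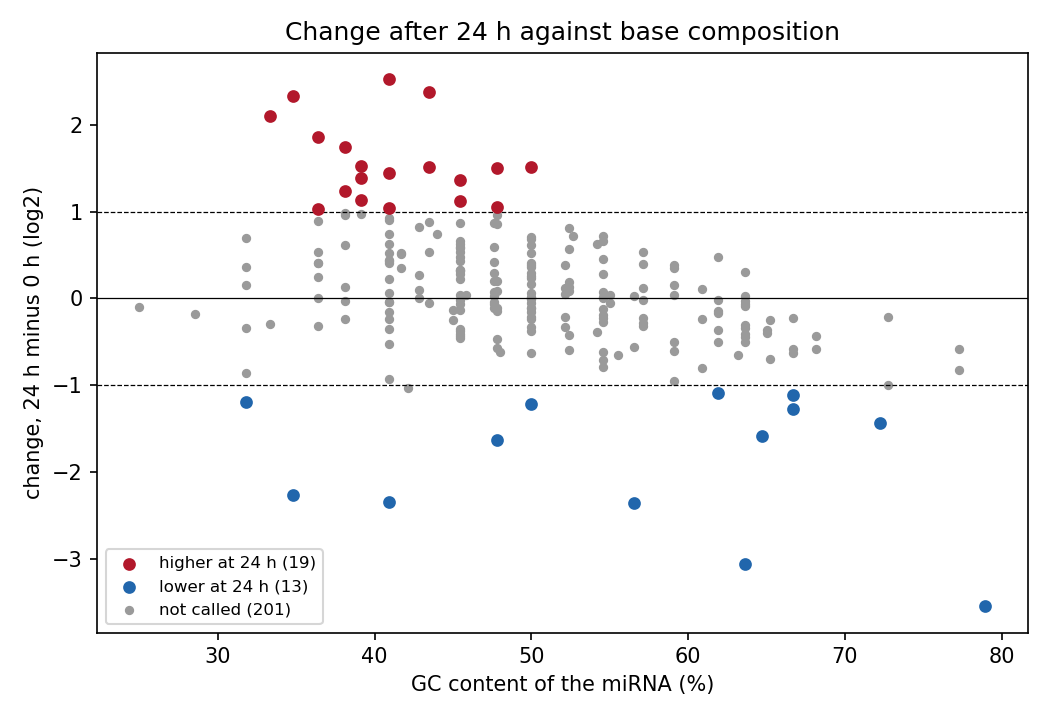
Log2 change (24 h minus 0 h) of the 233 miRNAs compared against the GC content of the miRNA; colours mark calls as in the legend and dashed lines 2-fold. No called-higher point lies above 50% GC, and 7 of 13 called-lower points lie at 60% or above.

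Control probes gave a scale for differences between both arrays that involve no miRNA. Of the spike probes with matched names, 14 were above the detection limit on both arrays. Placed on the quantile scale of the miRNA spots, they had a median difference of -0.07 with a range of -0.92 to 0.56, and 0 passed 2-fold. The 6 probes for 5S RNA had a median of 0.04 and reached 0.97. Of 8 spike probes with names of mismatched versions, 2 passed 2-fold, at -1.14 and 1.22. Only control probes with every spot above the limit on both arrays were placed, so they give no scale for miRNAs detected on 1 array. Among mismatched spikes left out, a-PUC2MM2d read 53.4 units at 24 h, below the limit, and 211.8 units at 0 h, above it. Ctr04-3M05 went the other way, with 162.4 units at 24 h, above the limit, and 130.0 units at 0 h, below it. Called changes near 1 were thus no larger than the largest differences among the control probes placed. Those of miR-146a, miR-494, miR-29b, miR-101a, miR-328a*, miR-1249, miR-3573-3p, miR-329 and miR-377 were 2.10 or more in size. Of these, miR-1249, miR-3573-3p and miR-377 were detected at 0 h only, a case that the placed control probes do not cover. The sources used here do not give how spikes were added.

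The 6 h and 12 h arrays share the 0 h array with this comparison, so their values are set beside it without a test. At 6, 12 and 24 h, miR-146a stood 0.97, 1.39 and 2.52 above 0 h. miR-29b stood at 0.77, 1.53 and 2.33, and miR-494 at 0.59, 2.22 and 2.38. miR-101a, at 0.22, 0.46 and 2.10, and miR-101b, at 0.13, 0.57 and 1.74, made their largest step between the 12 h and 24 h arrays. Of the 19 miRNAs called higher, 17 had their highest level of the 4 arrays at 24 h and 14 stepped up from each array to the next, in part because the 24 h level chose them. The exceptions were miR-29c, with 2.67 at 12 h and 1.85 at 24 h, and miR-322, whose 24 h and 12 h levels differed by less than their spot error, at 1.45 above 0 h in both. Set against 12 h by the same rule, 5 of the 19 were also higher at 24 h. These were miR-146a by 1.13 ± 0.09, miR-101a by 1.64 ± 0.08, miR-101b by 1.17 ± 0.09, miR-3588 by 2.01 ± 0.22 and miR-376b-3p by 1.09 ± 0.10. miR-3588 and miR-376b-3p were not detected at 12 h, at 70.5 and 80.0 units, so the sizes of their differences were not measured. The brightest 24 h spot of miR-3588, at 552.1 units, also stood well above its mean of 334.5.

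The lower miRNAs had more varied courses. miR-1249 stood at -1.85, -2.90 and -3.05 at 6, 12 and 24 h and miR-3573-3p at -1.37, -2.27 and -2.35, low from the first treated array on. miR-365* was lowest at 12 h, with -2.18, -2.21 and -1.59. In contrast, 3 of the 13 stood above 0 h at both earlier times: miR-328a* at 0.76, 1.20 and -3.54, miR-329 at 0.90, 0.93 and -2.34, and miR-98 at 0.78, 2.66 and -1.19. For these the step between the last arrays was larger than the change from 0 h, with 24 h below 12 h by 4.74 ± 0.20 for miR-328a*, 3.27 ± 0.11 for miR-329 and 3.85 ± 0.22 for miR-98. miR-328a* spots averaged 13432 units at 0 h, 27566 at 6 h, 44769.6 at 12 h and 1657 at 24 h. All 3 were thus lower at 24 h than on each of the other arrays.

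**Figure D5:**
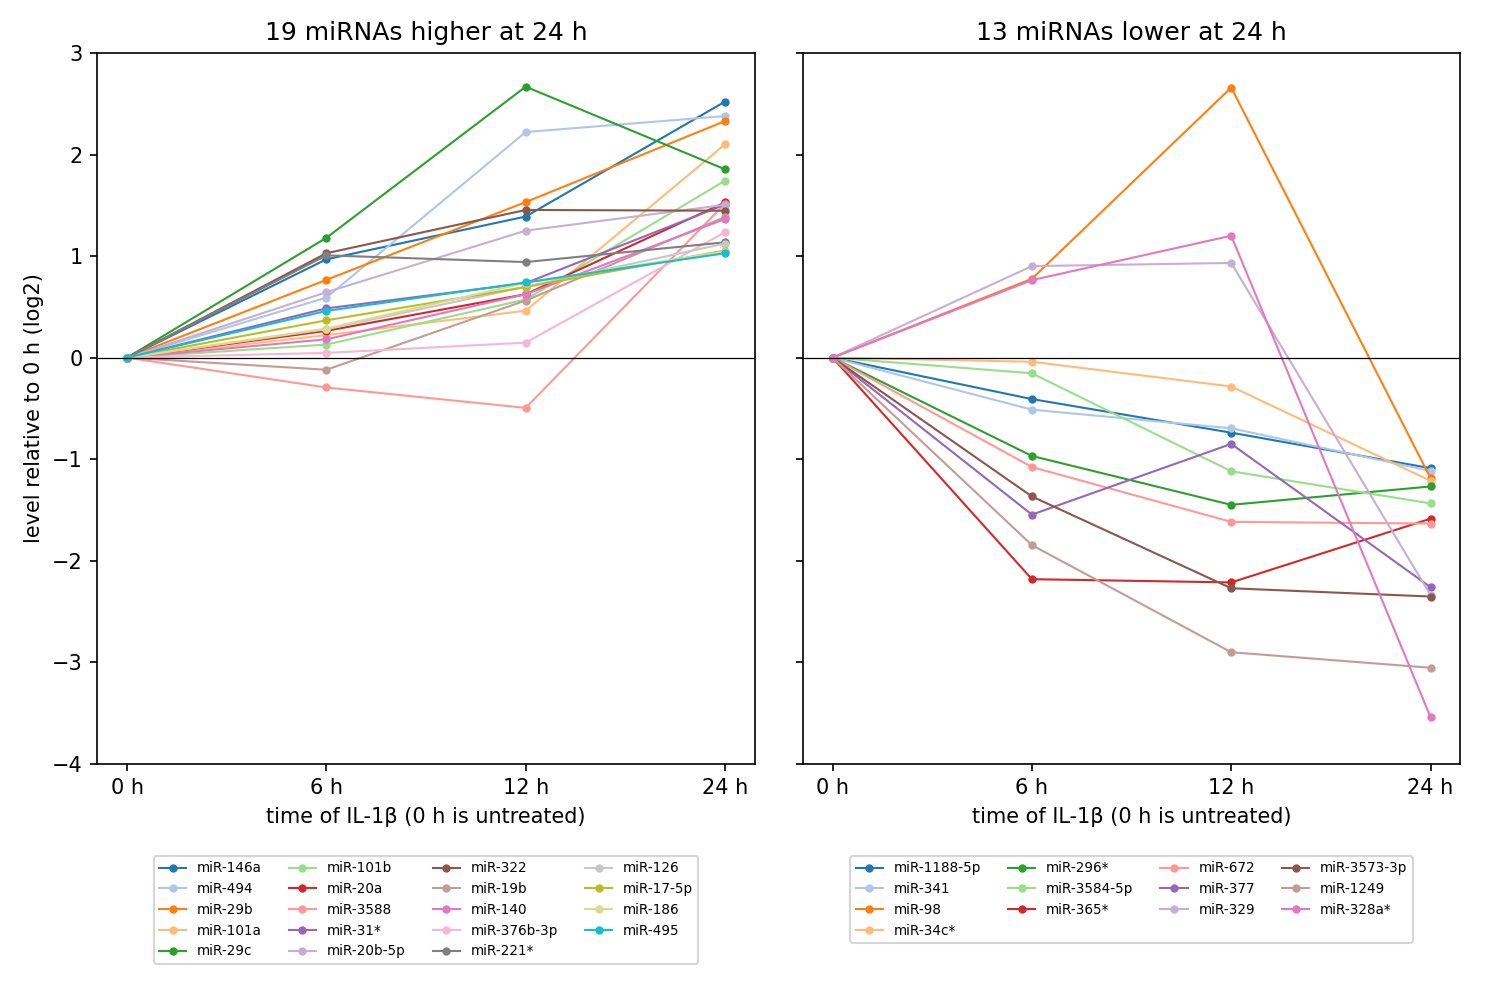
Log2 level relative to the untreated 0 h array at 0, 6, 12 and 24 h for the 19 miRNAs called higher at 24 h (left) and the 13 called lower (right), 1 array a time. Most higher miRNAs step up to 24 h, whereas miR-98, miR-328a* and miR-329 lie above 0 h at 6 h and 12 h and below it at 24 h.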

How the data were processed

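Total RNA had been extracted with a column kit, size-filtered to small RNAs, tailed with poly(A) and ligated to a tag for staining with Cy5, per the labels' protocols. The deposited array files give the mean intensity of 3968 spots per array in linear scanner units, without background subtraction, as the level of the empty spots shows. The authors' value table holds 1 processed intensity per miRNA and array, by a method not given in the sources used here, and served as an alternative only. Scanner and image software are not given in the sources used here.

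Spots were background-corrected with normexp in limma 3.58.1 (R 4.3.3; offset 50), quantile-normalized over the miRNA spots of all 4 arrays, put on the log2 scale, to which the deposited values had not been brought, and averaged over 5 spots. Python 3.11.15 with numpy 2.4.6, pandas 2.3.3 and matplotlib 3.10.9 did the rest. The rules for detection and calls, and the bounds, stand with the results; the procedure was tested on simulated arrays. Named are all called miRNAs, the 5 nearest misses each way, the 10 brightest at 24 h and compared members of 17 lists. Members and lists were chosen with earlier results of these data known. Of 679 sequences, 621 matched a RefSeq mature miRNA exactly. The alternatives changed background correction, scaling, filter, spot summary, fold rule and GC content, 1 at a time.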

Additional observations from a re-analysis of the deposited data

How the results depend on the processing

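The split of 19 higher and 13 lower depended on the scaling between arrays. It was 30 and 18 with a normexp offset of 16, 34 and 18 without normalization, 19 and 31 without normalization after centring on the median change, 13 and 38 with median scaling (over miRNAs that all 4 arrays detected), 12 and 13 after GC correction, 10 and 8 among miRNAs detected on both arrays, and 48 and 31 with a 1.5-fold rule. Scaling to the matched spike spots, chosen after seeing the data, gave 23 and 27. The other 10 settings stayed within 1.5 times on both counts, between 13 and 27 higher and between 11 and 16 lower, among them the authors' values with 22 and 14 and leaving out probes related to a brighter one, also chosen after seeing the data, with 16 and 12. Higher calls made up 59.4% of all calls, against 38% after centring, 25.5% with median scaling, 48% after GC correction and 46% with spike scaling. The median change was 0.30 without normalization and -0.19 with median scaling. The cause of these shifts was not tested.

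Of the 32 calls, 12 held under each of the 18 settings that gave them a value: miR-20a, miR-101a, miR-101b, miR-29b, miR-29c, miR-494 and miR-146a higher, and miR-328a*, miR-1249, miR-3573-3p, miR-329 and miR-377 lower. miR-1249, miR-3573-3p and miR-377 have no value where detection on both arrays was required, and miR-29b and miR-29c none without related probes. The calls of miR-140 (0.98), miR-31* (0.85), miR-19b (0.95), miR-365* (-0.95) and miR-672 (-0.83) ended in 1 setting each. Those of miR-495 (to 0.18), miR-186 (to 0.20), miR-221* (to 0.29) and miR-126 (to 0.35) ended in 7 or 8, and no called miRNA changed sign. With 1 array a side, the spread between cultures was not measured, and signals of dim miRNAs are limited by the empty-spot level of 122.6 units at 0 h. No paired analysis was possible because each group has 1 array.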
